A study of Mus musculus with 194 samples.

Results

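The Hox genes are the 39 protein-coding genes of GRCm38 whose symbols are Hoxa, Hoxb, Hoxc or Hoxd followed by a number, out of 21627 such genes of the autosomes and X. They lie in 4 clusters: Hoxa with 11 genes on chromosome 6, Hoxb with 10 on chromosome 11, Hoxc with 9 on chromosome 15 and Hoxd with 9 on chromosome 2. Transposon insertions from calling card experiments were counted over each cluster with 20 kb on either side, in every deposited table. With these flanks the regions were chr6:52135367-52280880 (Hoxa, 145.5 kb), chr11:96174316-96388254 (Hoxb, 213.9 kb), chr15:102901131-103056856 (Hoxc, 155.7 kb) and chr2:74648225-74785142 (Hoxd, 136.9 kb), in GRCm38. A value is given as a relative density, the insertions per kb of a region divided by the genome mean of the same table. A relative density of 1 is the genome mean, 0.38 insertions per kb per 1000000 insertions of a table.

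In calling cards a transposase places a reporter transposon into TTAA sequences near the place where it sits on the chromosome, and each insertion is a permanent mark in that cell's DNA. The tables come from 46 mice in 11 groups and from N2a, a mouse neuroblastoma line whose 3 experiments the authors combined into 1 table, so N2a has no replicate. All mice received adeno-associated virus on postnatal day 0 to 1, and for the RNA-read cortex groups the cortex was cut into 10 pieces. The insertions were read from RNA as self-reporting transposons in 43 animals and from cortical DNA by inverse PCR, with 20 barcoded transposons, in the 3 BrokenHeart animals. C57bl6J (2 animals) received viruses that do not need Cre. Syn1Cre (6) and GFAPCre (6) carry Cre from lines commonly used for neurons and for astrocytes, and Syn1CreNeg (6) and GFAPCreNeg (6) are their Cre-negative animals. Frontflip_GFAPCre (3) and Frontflip_GFAPCreNeg (3) are named for a further construct. Syn1Cre_SP1_P28 (4) and Syn1Cre_SP1_P10 (3) are Syn1Cre animals named for the transcription factor SP1, taken at postnatal day 28 or 10. Rbp4Cre_TRAP (4) was prepared from whole forebrain by TRAP, and Rbp4Cre is a line commonly used for layer 5 cortical neurons. The tables of the other groups are from cortex. The labels give no age for the other groups and do not describe the SP1 or Frontflip constructs. A Cre line names the cells in which the viruses were meant to act, and the RNA came from whole cortex pieces.

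Hox genes encode homeodomain transcription factors that give cells their position along the body axis. Within a cluster, genes with low numbers act toward the head and those with high numbers toward the tail, and in the nervous system the clusters are used in the hindbrain and spinal cord. In the forebrain they are held silent, with Polycomb complexes covering whole clusters, while Trithorax proteins and H3K27 demethylases oppose that silencing, and Pbx, Meis and Pknox proteins are the partners with which Hox proteins bind DNA. The piggyBac transposase, when not fused to another protein, is known to favour active enhancers.

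Depth set what could be seen. Animals had between 1545951 and 2186743 insertions in C57bl6J, 443158 to 1364948 in Syn1Cre, 600443 to 1505413 in GFAPCre, 97519 to 556145 in Syn1CreNeg and 208057 to 597230 in GFAPCreNeg. SP1 animals had 108965 to 577609 at P28 and 86842 to 95331 at P10. Rbp4Cre_TRAP animals had 24408 to 57014, BrokenHeart 42511 to 98197, Frontflip_GFAPCre 160631 to 205559 and Frontflip_GFAPCreNeg 2341 to 9601. N2a had 806653. Some sequencing pools held animals of several groups, among them 20 pools with both GFAPCre and GFAPCreNeg and 20 with both SP1 groups, and the effect of this on the values was not tested. Insertions at marker genes are not expression, but they were set against the labels. The 5 forebrain markers had summed relative densities of 16.1 and 17.3 in C57bl6J, 17.2 to 25.1 in Syn1Cre and 14.9 to 21.8 in GFAPCre. The 5 hindbrain and spinal cord markers separated Syn1Cre from GFAPCre, with the values given beside the Hoxd comparison. Neuron markers had 4.42 to 4.87 in Syn1Cre and 4.13 to 4.94 in GFAPCre, and astrocyte markers 2.78 to 9.02 and 3.85 to 7.81, so that neither list separated the groups. Oligodendrocyte markers had 1.59 to 2.11 and 1.65 to 2.82, and markers of microglia and vessels 0.551 to 0.888 and 0.67 to 0.874. Layer 5 markers had 8.18 to 9.23 and 6.63 to 7.99, without overlap.

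Insertion needs a TTAA, so the sequence of a promoter limits where a transposon can land near a Hox gene. The windows printed here run from 250 bases before to 50 bases after a start site, as RefSeq gives them for GRCm38.p6, 5′ to 3′ on the plus strand, with TTAA and the SP1 core GGGCGG (or CCGCCC on the other strand) in capitals. Hoxc4 is shown because it was among the genes with the most insertions within 1 kb of their ends in the SP1 animals, 1 insertion, and had 3 in N2a. Its window is at a start site inside the gene, more than 1 kb from either gene end, and holds none of these insertions. Hoxb8 and Hoxd1 were chosen after their values were seen. Hoxb8 holds insertions within its window. Hoxd1 is the Hox gene nearest to the 3 cluster positions hit in the largest numbers of animals (13, 6 and 6), which lie outside its window.
Hoxc4, chr15:103034145-103034444: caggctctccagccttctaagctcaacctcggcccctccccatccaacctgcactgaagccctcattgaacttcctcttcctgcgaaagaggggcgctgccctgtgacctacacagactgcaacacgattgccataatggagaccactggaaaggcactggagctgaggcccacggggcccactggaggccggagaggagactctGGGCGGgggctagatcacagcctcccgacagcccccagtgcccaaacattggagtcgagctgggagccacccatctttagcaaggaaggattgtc
Hoxb8, chr11:96281655-96281954: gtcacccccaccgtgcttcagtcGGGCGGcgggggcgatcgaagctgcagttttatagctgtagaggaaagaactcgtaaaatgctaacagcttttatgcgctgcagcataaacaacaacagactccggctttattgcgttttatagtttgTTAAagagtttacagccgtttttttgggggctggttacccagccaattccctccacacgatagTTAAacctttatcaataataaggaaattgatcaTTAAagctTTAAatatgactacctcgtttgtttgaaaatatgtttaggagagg
Hoxd1, chr2:74762730-74763029: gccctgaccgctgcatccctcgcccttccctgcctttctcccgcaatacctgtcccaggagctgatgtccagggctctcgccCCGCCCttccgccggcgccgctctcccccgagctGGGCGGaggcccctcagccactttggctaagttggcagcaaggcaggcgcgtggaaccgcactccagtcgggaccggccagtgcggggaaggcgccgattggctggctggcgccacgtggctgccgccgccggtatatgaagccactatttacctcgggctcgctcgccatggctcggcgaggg

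The Hoxc4 window holds 0 TTAA and 1 SP1 core, the Hoxd1 window 0 TTAA and 2 SP1 cores, and the Hoxb8 window 4 TTAA and 1 SP1 core. The Hoxc4 and Hoxd1 windows held 0 insertions over all tables. The Hoxb8 window was the only Hox window with any and held 1 insertion in N2a and 2 over all animals, of which 1 was in BrokenHeart. Windows were matched for 22 of the 39 genes (24 windows). A TTAA was found in 45.8% of them and in 48.1% of the 21044 windows of all protein-coding genes, and the SP1 core in 41.7% against 46.7%. TTAA were not counted over the whole clusters here, and a relative density also depends on how many TTAA a region holds.

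When read from RNA, the Hox clusters held few insertions in the animals. In each of the 43 RNA-read animals each of the 4 clusters lay below the genome mean. The highest animal reached 0.359 at Hoxa, 0.114 at Hoxb, 0.336 at Hoxc and 0.443 at Hoxd, and no insertion was seen in 19, 16, 19 and 18 animals respectively. Some of these were too shallow for a count of 0 to place them below the mean. At Hoxa a count of 0 allowed 5.65 to 23.2 in the Frontflip_GFAPCreNeg animals. It allowed 1.35 and 2.22 in Rbp4Cre_TRAP animals 3 and 4.

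The C57bl6J animals, the deepest, gave the clearest view. At Hoxa they held 4 and 8 insertions, relative densities of 0.0468 and 0.0661. At Hoxb they held 12 and 15 (0.0955 and 0.0844), at Hoxc 9 and 14 (0.0984 and 0.108), and at Hoxd 16 and 21 (0.199 and 0.184). Per 1000000 insertions of a table these were 2.59 and 3.66 insertions at Hoxa, 7.76 and 6.86 at Hoxb, 5.82 and 6.40 at Hoxc, and 10.35 and 9.60 at Hoxd. With its flanks Hoxd was the densest of the 4 clusters in both animals, at a mean of 0.192 ± 0.0102 (SD, n = 2) against 0.0565 ± 0.0137, 0.0899 ± 0.00785 and 0.103 ± 0.00693. Over the gene spans alone Hoxd no longer ranked first, with means of 0.0698 at Hoxa, 0.0625 at Hoxb, 0.1065 at Hoxc and 0.102 at Hoxd, and the flanks of Hoxd had 0.241 and 0.340 in the 2 animals beside Hoxd13 and 0.511 and 0.541 beside Hoxd1. When the genome was divided into tiles of each cluster's length and tiles without insertions were left out, the C57bl6J count was at or above that of 3.26% of tiles for Hoxa, 4.7% for Hoxb, 5.87% for Hoxc and 12.3% for Hoxd. The median tile held 144, 221, 155 and 135 insertions, against the 12, 27, 23 and 37 of the clusters.

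Syn1Cre and GFAPCre animals were as sparse at the first 3 clusters. At Hoxa the Syn1Cre animals ranged from 0.0265 to 0.144 with a median of 0.0627, and the GFAPCre animals from 0.0265 to 0.121 with a median of 0.0575. At Hoxb they ranged from 0.044 to 0.0991 (median 0.0758) and from 0.0205 to 0.0899 (median 0.0615). At Hoxc they ranged from 0.0371 to 0.222 (median 0.125) and from 0.0281 to 0.173 (median 0.0611). The groups overlapped at these 3 clusters and did not overlap at Hoxd.

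**Figure D1:**
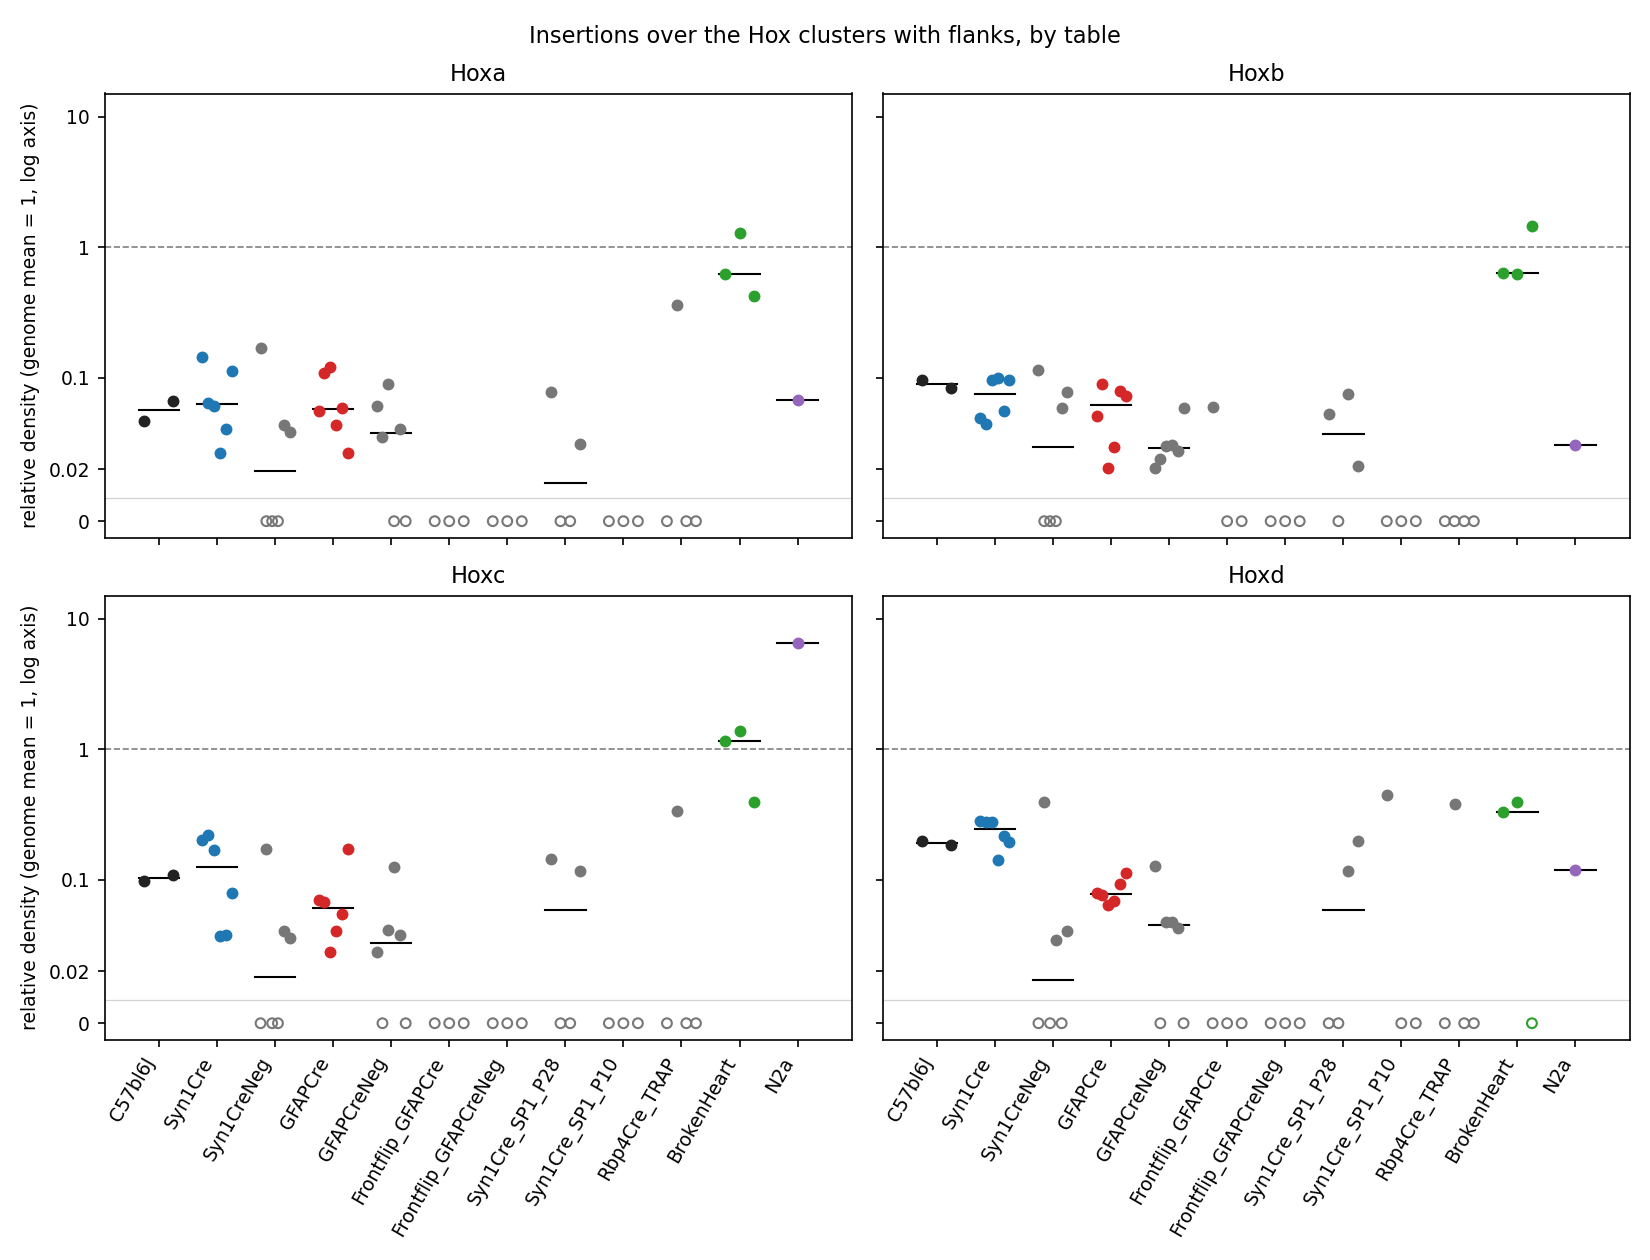
Relative insertion density (log axis, genome mean = 1, dashed line) over each Hox cluster with 20 kb flanks, 1 point per animal or the N2a table, black lines at group medians, open points at 0. All RNA-read animals lie below 1, the BrokenHeart animals lie around 1 except at Hoxd, and N2a lies at 6.46 at Hoxc and below 1 elsewhere.

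The 500 kb on either side of each cluster were denser than the cluster in C57bl6J. Those below Hoxa, on the side of Skap2 (a signalling adaptor gene), had a relative density of 3.29 over the C57bl6J animals and those above it 0.516. Those below Hoxc had 3.84 and those above 1.19. Around Hoxb the values were 0.6 below and 1.81 above, on the side of Skap1, and around Hoxd they were 1.01 and 0.935. The gene Skap2 itself had 4.47 and 4.56 in the C57bl6J animals. Evx1 and Evx2, homeobox genes at the outer ends of Hoxa and Hoxd, were also low, at means of 0.0647 and 0.201.

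The Hox genes were at the low end of the gene lists. Each gene was given a territory, the positions nearest to it among protein-coding genes and within 20 kb. Over the 39 Hox territories the summed relative density was 0.101 and 0.106 in C57bl6J. The 14 developmental regulators used outside the forebrain, such as Gata4, Tbx5 and T, were as low, at 0.107 and 0.123. Genes upstream of Hox, which include the Cdx genes and retinoic acid receptors, had 0.592 and 0.633, Trithorax genes and demethylases 0.894 and 0.988, and Polycomb genes 1.10 and 1.15. The 9 Hox cofactor genes had 5.88 and 6.21, and the 15 homeodomain genes of the forebrain 6.33 and 6.94. Within the cofactors Meis2 had 13.7 and 14.8, and within the forebrain genes Pou3f3 reached 35.8 and 37.9. Genes of Hox partners were thus dense in the same cortices whose Hox clusters held few insertions.

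**Figure D2:**
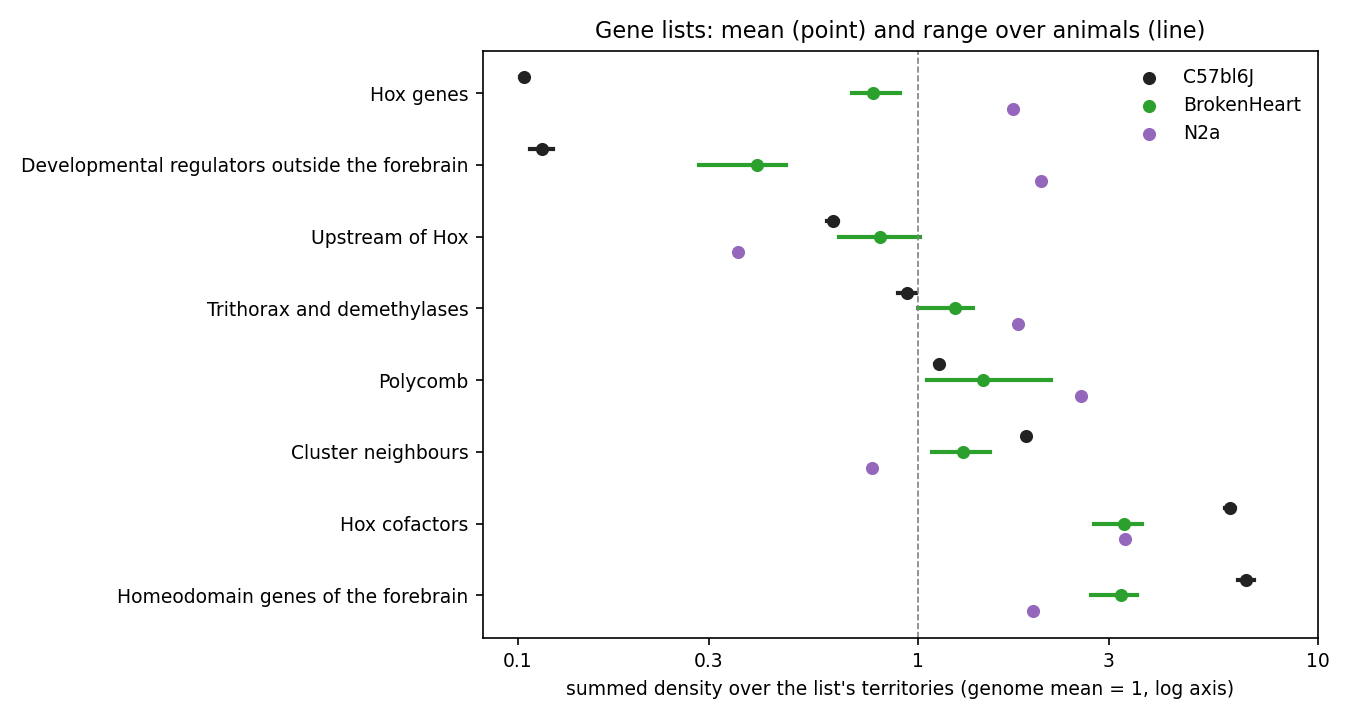
Summed relative density (log axis, genome mean = 1) of the gene lists, mean as a point and range over animals as a line, in C57bl6J (2 animals), BrokenHeart (3 animals) and N2a (1 table). In C57bl6J the Hox genes are at 0.101 to 0.106 and the forebrain homeodomain genes at 6.33 to 6.94. In BrokenHeart the Hox genes are between 0.683 and 0.901.

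No Hox territory exceeded the genome mean in C57bl6J, where 26 of 39 genes held any insertion and the median territory had 0.0638, against 0.69 over all 21620 territories. Of all territories 36.1% exceeded the genome mean in C57bl6J and 7.84% held no insertion. The 3 densest were Hoxd1 (15 insertions, 0.358), Hoxb1 (11 insertions, 0.273) and Hoxc13 (12 insertions, 0.267). All 3 are outermost genes, whose territories reach 20 kb beyond the cluster. Hoxb1 and Hoxd1 are the genes of the head-ward end, Hoxb1 being known for its part in hindbrain segment identity, and Hoxc13, known from hair and nail formation, is the tail-ward end of Hoxc. The 13 genes at 0 in C57bl6J were Hoxa4 to Hoxa7, Hoxa11, Hoxb3 to Hoxb5, Hoxb7, Hoxc5, Hoxc11, Hoxd4 and Hoxd12, all inner genes. Many inner territories are short, such as 2.02 kb for Hoxa4 and 5.32 kb for Hoxd12, while Hoxb3 has 39.8 kb. In Syn1Cre 25 genes and in GFAPCre 24 held insertions, again with 0 above the genome mean, and Hoxd1 was densest in both (0.480 and 0.206). Of all territories 38.9% in Syn1Cre and 37.1% in GFAPCre lay above the genome mean, and 6.89% and 7.76% held no insertion.

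The same positions were hit in different animals. Of 94 positions with an insertion at Hoxd in animals, 19 were used in at least 2 animals, against 9 of 66 at Hoxa, 17 of 98 at Hoxb and 14 of 92 at Hoxc. The most shared was chr2:74775399-74775402, in the flank 10257 bases beyond Hoxd1, with 17 insertions in 13 animals: all 6 Syn1Cre animals, both C57bl6J animals, 2 GFAPCre, 2 GFAPCreNeg and 1 SP1 animal at P10. The next were chr2:74784656-74784659 (8 insertions in 6 animals) and chr2:74774474-74774477 (7 insertions in 6 animals), on the same side of Hoxd1. These 3 positions were chosen for being shared, and how often shared positions occur elsewhere was not counted here.

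**Figure D3:**
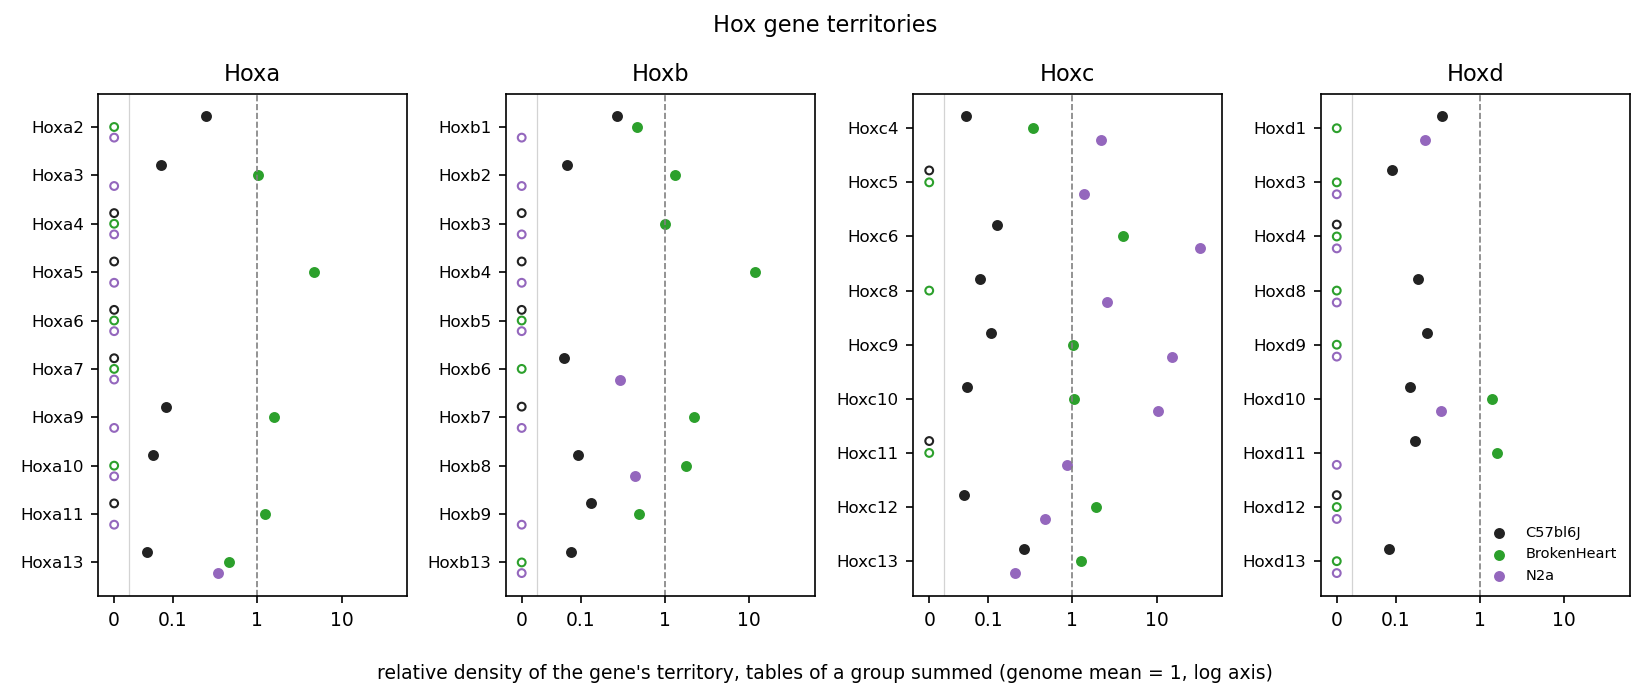
Relative density (log axis, genome mean = 1) of 38 Hox territories with the tables of a group summed, open points at 0. C57bl6J lies below 1 at every gene plotted, BrokenHeart lies above 1 at 15, and N2a exceeds 1 at 6 genes, all in Hoxc. Over the territories of all genes 36.1%, 41.2% and 42.5% lie above 1 in C57bl6J, BrokenHeart and N2a.

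The comparison of Syn1Cre with GFAPCre asked whether insertions differ between animals with a neuronal and an astrocyte Cre line. Hoxd was higher in Syn1Cre and was the only cluster called. The Syn1Cre animals had relative densities of 0.141, 0.195, 0.217, 0.275, 0.280 and 0.281 at Hoxd, from 5 to 13 insertions each, and the GFAPCre animals 0.0640 to 0.113, from 2 to 6 insertions each. The lowest Syn1Cre animal was above the highest GFAPCre animal. Summed over animals these were 64 and 22 insertions, with means of 0.231 ± 0.0573 (SD, n = 6) and 0.0826 ± 0.0179 (SD, n = 6).

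With edgeR's default filter on low counts, 0 of the 4 clusters and 0 of the 39 Hox territories were deep enough to be tested in this comparison. The fold changes are therefore from the same fit on all features with at least 1 insertion. There Hoxd was higher in Syn1Cre by 1.36 on the log2 scale (SE 0.33, adjusted p = 0.0166 by edgeR's quasi-likelihood test with Benjamini-Hochberg adjustment). It was the 1 of 4 clusters called, where 0.708% of the 49837 clusters and 50 kb windows were called higher. Hoxc had a log2 difference of 0.66 (SE 0.43, adjusted p = 0.517), and Hoxa and Hoxb had adjusted p of 0.99 and 0.78 in the same edgeR fit. None of the 29 Hox territories tested passed (background 0.753% higher), with 3 at an unadjusted p under 0.05. Hoxd1, which held 30 insertions in Syn1Cre and 12 in GFAPCre, had a log2 difference of 1.12 (SE 0.44, edgeR adjusted p = 0.227).

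Of the Hoxd insertions of Syn1Cre, 17 lay in the flank beside Hoxd13, 20 over the genes and 27 in the flank beside Hoxd1, and of those of GFAPCre 5, 5 and 12. In the 20 kb flank beside Hoxd1 the Syn1Cre animals had 0.578 to 0.737 with a median of 0.622, and the GFAPCre animals 0.214 to 0.438 with a median of 0.294. In the flank beside Hoxd13 the ranges were 0 to 0.785 and 0 to 0.428. Over the genes themselves, Hoxd13 to Hoxd1, they were 0.0795 to 0.123 and 0 to 0.0398. The groups did not overlap in the flank beside Hoxd1 or over the genes, and overlapped beside Hoxd13. Without the flanks the log2 difference was 1.71 and not called (edgeR adjusted p = 0.13).

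**Figure D4:**
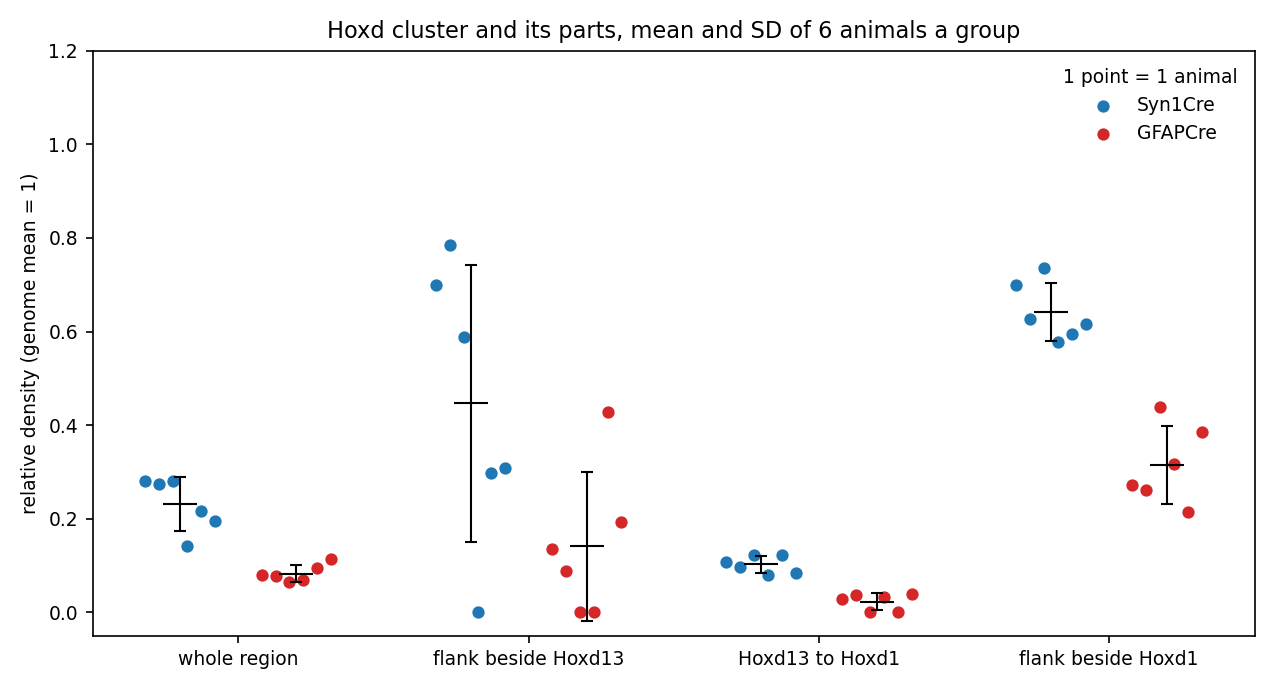
Relative density (genome mean = 1) of the Hoxd region and its parts, 1 point per animal, with mean and SD of 6 Syn1Cre (blue) and 6 GFAPCre (red) animals. The flank beside Hoxd1 has 0.578 to 0.737 in Syn1Cre and 0.214 to 0.438 in GFAPCre, and the genes between the flanks have at most 0.123.

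The Syn1Cre animals were split by how they were sequenced. The labels list Syn1Cre animals 1 to 3 and 4 to 6 in different layouts of sequencing pools, and animals 1 to 3 also had fewer reads, 2329351 to 3296669 against 9156081 to 15255197. At Hoxd animals 1 to 3 had 0.279 ± 0.00310 (SD, n = 3) and animals 4 to 6 had 0.184 ± 0.0391 (SD, n = 3). Against all GFAPCre animals, animals 1 to 3 alone gave a log2 difference of 1.68 (edgeR adjusted p = 0.002) and animals 4 to 6 alone 1.04 (edgeR adjusted p = 0.41). At Hoxc the split was wider, 0.198 ± 0.0259 against 0.0515 ± 0.0240 (SD, n = 3 each), and the log2 difference from GFAPCre was 1.38 (edgeR adjusted p = 0.0337) with animals 1 to 3 and -0.42 (edgeR adjusted p = 0.879) with animals 4 to 6. Hoxd was no longer called when insertions with fewer than 2 reads were dropped (log2 difference 1.21, edgeR adjusted p = 0.107). At Hoxd 64.1% of Syn1Cre insertions had at least 2 reads (Wilson 95% interval 51.8 to 74.7) and 86.4% of those in GFAPCre (66.7 to 95.3), against 73.9% and 89.4% over the genome. Syn1Cre and GFAPCre animals shared 0 sequencing pools, and Syn1Cre and Syn1CreNeg animals also shared 0. Each of these 2 comparisons was therefore also a comparison between different pools, and neither could be made within a pool. The part of read depth and of pool layout in the Hoxd result was not tested.

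The list of 5 hindbrain and spinal cord markers also separated these groups. Its summed relative density was 0.447 to 0.681 in Syn1Cre and 0.172 to 0.298 in GFAPCre, without overlap, and none of its genes was at 0 over a whole group. Of its members Egr2 had relative densities of 0.206 to 0.978 in Syn1Cre and 0.328 to 0.936 in GFAPCre, Phox2a 0 to 0.375 and 0 to 0.331, and Hoxb1, itself a Hox gene, 0 to 0.204 and 0 to 0.151. The groups overlapped at each of these 3 genes, and the other members are not reported singly here. The layer 5 list separated the groups too, at 8.18 to 9.23 in Syn1Cre and 6.63 to 7.99 in GFAPCre. The part of cell makeup in the Hoxd result was not tested. Among the lists, 3 of 13 tested homeodomain genes of the forebrain were higher in Syn1Cre (Dlx1 by 2.19, Dlx2 by 1.99 and Cux2 by 0.75 on the log2 scale, edgeR adjusted p = 2.42e-10, 8.79e-05 and 0.000158) and Pax6 was lower by a log2 difference of -0.83 (edgeR adjusted p = 0.0483), where 1.66% of 9269 territories were higher and 1.05% lower. Dlx1 and Dlx2 mark inhibitory neurons and Cux2 upper-layer neurons. Of the genes flanking the clusters 1 of 6 tested was called, Skap1 beside Hoxb1, higher by 0.58 (edgeR adjusted p = 0.00799). None of the 6 cofactor, 10 Polycomb, 5 Trithorax or 2 upstream genes tested passed.

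Against Cre-negative animals the Hox clusters held few insertions to compare. At Hoxd the 6 Syn1CreNeg animals had 0 insertions in 3 animals and relative densities of up to 0.394 in the others, 4 insertions in all, and overlapped with Syn1Cre. Hoxd was higher in Syn1Cre by 2.15 on the log2 scale (SE 0.61, edgeR adjusted p = 0.00675), the 1 of 4 clusters called, where 5.8% of all features were called higher. Leaving out Syn1CreNeg animal 5 ended this call (1.81, edgeR adjusted p = 0.0503), as did leaving out the flanks (0.90, edgeR adjusted p = 0.502) and requiring 2 reads (1.82, edgeR adjusted p = 0.0618). Hoxc missed the threshold with a log2 difference of 1.83 (SE 0.72, edgeR adjusted p = 0.0763), which leaving out Syn1Cre animal 4 or Syn1CreNeg animal 2 brought to adjusted p of 0.035 and 0.0467. Hoxa and Hoxb had edgeR adjusted p of 0.389 and 0.443. Of the Hox territories, 1 of 28 tested was called (background 6.71% higher): Hoxd1, with 30 insertions against 1, was higher by 2.83 (SE 0.94, edgeR adjusted p = 0.025). Leaving out Syn1CreNeg animal 4, 5 or 6 ended the Hoxd1 call, at edgeR adjusted p of 0.0901 to 0.127. Of the lists, 2 Polycomb genes of 9 tested were higher and 2 lower, 3 neighbours of 6 higher and 2 lower, 5 forebrain homeodomain genes of 13 higher and 6 lower, 0 cofactors of 6 higher and 2 lower, and 0 Trithorax genes of 4 higher and 1 lower, where 14.8% of territories were higher and 19.8% lower. Skap1 and Skap2, beside Hoxb and Hoxa, were higher by 1.03 and 0.73 (edgeR adjusted p = 3.54e-05 and 0.000157), and Cbx8, a PRC1 subunit gene, by 1.47 (edgeR adjusted p = 0.00116).

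No cluster was called between GFAPCre and GFAPCreNeg. GFAPCreNeg animals had medians of 0.0379, 0.0289, 0.033 and 0.0452 at Hoxa, Hoxb, Hoxc and Hoxd, from 6, 6, 6 and 7 insertions, and the groups overlapped at each cluster. The edgeR adjusted p were 0.55 to 0.767 and 0 clusters were called with 0 at an unadjusted p under 0.05, where 2.66% of features were called. Of Hox territories 0 of 25 passed, 0 at an unadjusted p under 0.05 (background 3.92%). Of the lists, Men1 (Trithorax, 1 of 3 tested) was lower at -0.68 and Lhx2 (forebrain, 1 of 12) higher by 0.39 (edgeR adjusted p = 0.0247 and 0.0245), where 2.35% of territories were higher and 6.62% lower. The difference between the Syn1 and the GFAP Cre effect was tested as an interaction, and at Hoxd it was 1.59 on the log2 scale (SE 0.97, edgeR adjusted p = 0.618, background 0.634%), so the Cre effect was not shown to differ between the lines.

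SP1 binds GC boxes, and the groups named for it were compared with Syn1Cre. Neither SP1 group shared a sequencing pool with Syn1Cre (0 pools), and the labels give no age for Syn1Cre. In the comparisons with Syn1Cre, for clusters and for all gene lists, the construct, the pools and any difference in age cannot be told apart. The Hox clusters stayed sparse. At P28 the 4 animals together held 2 insertions at Hoxa, 3 at Hoxb, 6 at Hoxc and 7 at Hoxd. At Hoxd the animals had 0, 0, 1 and 6 insertions, at Hoxc 2, 0, 0 and 4, at Hoxb 1, 0, 1 and 1 and at Hoxa 1, 0, 0 and 1. At P10 the 3 animals held 2 insertions at Hoxd, both in animal 1, and 0 at the other clusters, which allows relative densities of up to 0.199 at Hoxa, 0.136 at Hoxb and 0.186 at Hoxc over the group. P10 animal 1 reached 0.443 at Hoxd, above the highest Syn1Cre animal at 0.281, and no other SP1 animal lay above the Syn1Cre range at any cluster.

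None of the clusters was called against Syn1Cre. The edgeR adjusted p were 0.376 to 0.812 at P28, with 0 clusters at an unadjusted p under 0.05 and 17.9% of all features called. At P10 they were 0.171 to 0.522, with 1 cluster at an unadjusted p under 0.05 and 13.6% of features called. Between P28 and P10, 0 clusters were called (0.722 to 0.995, 0 at an unadjusted p under 0.05, background 0.62%). With the filter on low counts only Hoxd at P10 could be tested, with an edgeR adjusted p of 0.622 (background 24.7%). Of the Hox territories 0 of 26 passed at P28, with 1 at an unadjusted p under 0.05, and 27.2% of all territories tested were called. At P10 0 of 25 passed (background 21.7%) and between P28 and P10 0 of 11 (background 1.37%), with 0 at an unadjusted p under 0.05 in edgeR in either. The densest at P28 were Hoxb5 (1 insertion, 0.597), Hoxd1 (5 insertions, 0.411) and Hoxc13 (4 insertions, 0.307). Over both SP1 groups together the insertions within 1 kb of a Hox gene end were 1 each at Hoxb5, Hoxc13 and Hoxc4. All of these were in P28 animals.

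Genes of Hox regulators were called in the same animals. At P28, 8 of 12 Polycomb genes tested were higher and 1 lower (list median 0.77 on the log2 scale, all genes -0.06), where 24.6% of 9847 territories were higher and 22.9% lower. A gene can pass the low-count filter through the SP1 group alone. The list counts and medians at P28 and P10 therefore cover the genes tested and do not stand for the whole lists. Phc1 and Pcgf2, subunits of Polycomb complex PRC1, were higher by 2.27 and 1.96, and the methyltransferase gene Ezh1 by 1.23 (edgeR adjusted p = 2.51e-07, 7.44e-06 and 2.15e-05). Phc1 had relative densities of 4.89 to 8.52 in the 4 SP1 animals and 0.624 to 1.48 in the 6 Syn1Cre animals, and Pcgf2 6.09 to 10.2 and 1.24 to 1.55. Neither gene's groups overlapped.

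Of Trithorax genes and demethylases 3 of 5 tested were higher at P28 and 1 lower (median 1.21). Kdm6b, an H3K27 demethylase gene, was higher by 1.84, Men1 by 1.34 and Kmt2a by 1.22 (edgeR adjusted p = 2.55e-07, 0.000196 and 5.12e-05), while Kdm6a, the X-linked demethylase gene, had a log2 difference of -1.45 (edgeR adjusted p = 0.00129) and ranges that overlapped, 0.155 to 1.16 in SP1 and 0.689 to 1.3 in Syn1Cre. Kdm6b had 9.64 to 13.7 in SP1 and 2.13 to 2.94 in Syn1Cre. Of the cofactors 2 of 7 were higher (Pknox1 by 1.87 and Pbx2 by 1.71, edgeR adjusted p = 1.29e-08 and 0.00026) and 3 lower, among them Meis2 and Pknox2 at -0.69 and -0.68 (edgeR adjusted p = 0.000695 and 0.000175). Of the genes beside the clusters 1 of 7 was higher, Cbx5 beside Hoxc by 0.57, and 4 lower, with Skap2 at -1.42 and Lnpk beside Hoxd at -1.52 (edgeR adjusted p = 0.0114, 3.2e-06 and 0.0019). Of the upstream genes tested, the retinoic acid receptor gene Rarg was higher by 1.40 and Rarb lower at -0.84 (edgeR adjusted p = 0.000638 and 0.00437), out of 3. The forebrain homeodomain genes had 2 higher and 5 lower of 13. At P10, where 17.6% of territories were higher and 18.7% lower, 3 Polycomb genes of 11 tested were higher and 1 lower, and 3 Trithorax genes of 5 higher and 1 lower, with Phc1 higher by 3.30 and Rarg by 2.68 (edgeR adjusted p = 1.31e-08 and 6.16e-06).

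Rbp4Cre_TRAP and the Frontflip animals held few insertions at the clusters. The 4 Rbp4Cre_TRAP animals held 1 insertion at Hoxa, 1 at Hoxc, 1 at Hoxd and 0 at Hoxb, all 3 in animal 2, with its relative densities at 0.359, 0.336 and 0.382. Rbp4Cre_TRAP and Syn1Cre animals shared 0 sequencing pools. The edgeR adjusted p against Syn1Cre were 0.33 to 0.93, with 0 clusters called, 0 at an unadjusted p under 0.05 and 3.41% of features called. Of the Hox territories 0 of 25 passed, 0 at an unadjusted p under 0.05 (background 3.85%). Hoxa10, with 1 insertion, was the only Hox territory of the group above the genome mean, at 1.255, where 35.1% of all territories lay above it. Of the lists 1 cofactor of 6 tested was lower, Meis1 at -2.65, and 1 Polycomb gene of 10, Phc2 at -2.24 (edgeR adjusted p = 0.0256 and 0.0445), and 4 of 13 forebrain homeodomain genes were lower, where 0.232% of territories were higher and 1.66% lower. Frontflip_GFAPCre held 1 insertion, at Hoxb, and 0 at the other 3 clusters, which allows up to 0.102 at Hoxa, 0.0957 at Hoxc and 0.109 at Hoxd. Frontflip_GFAPCreNeg held 0 at each cluster, and its depth allows densities above the genome mean, up to 3.08 at Hoxa.

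BrokenHeart reads insertions from DNA, and it was set against C57bl6J to ask whether the readout changes where insertions are seen. In BrokenHeart Hoxa, Hoxb and Hoxc were near the genome mean. At Hoxa the animals had 0.425, 0.620 and 1.29 (1, 2 and 7 insertions), at Hoxb 0.626, 0.633 and 1.45 (5, 3 and 5 insertions) and at Hoxc 0.397, 1.16 and 1.38 (1, 4 and 8 insertions). At Hoxd they had 0, 0.330 and 0.391 (0, 1 and 2 insertions). All 3 animals lay above both C57bl6J animals at Hoxa, Hoxb and Hoxc, and the groups overlapped at Hoxd.

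Hoxa was higher in BrokenHeart by 3.21 on the log2 scale (SE 0.78, edgeR adjusted p = 0.00204), Hoxb by 2.46 (SE 0.62, edgeR adjusted p = 0.00341) and Hoxc by 2.68 (SE 0.63, edgeR adjusted p = 0.0014). These were 3 of 4 clusters called, where 0.47% of 49333 features were called higher and 5.25% lower. Hoxd had a log2 difference of -0.09 (SE 0.94, edgeR adjusted p = 0.97). The median over all features was -0.70 in this fit, and scaling by total insertions instead gave 3.90, 3.15, 3.37 and 0.60 for the 4 clusters. The counts in BrokenHeart are small (10, 13, 13 and 3), and the calls did not survive every omission of an animal: without BrokenHeart animal 2 Hoxa and Hoxc fell to adjusted p of 0.377 and 0.23, without animal 3 Hoxb to 0.0842, without C57bl6J animal 1 Hoxa, Hoxb and Hoxc to 0.0642, 0.0603 and 0.053, and without C57bl6J animal 2 Hoxb and Hoxc to 0.116 and 0.0642. In these fits Hoxa, Hoxb and Hoxc kept their direction. Where 1 C57bl6J animal is left, it is assumed to vary like the BrokenHeart animals. The readout, the transposon construct, the sequencing pools and the animals differ together between these groups and cannot be told apart.

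Over the 39 Hox territories the summed density was 0.683, 0.728 and 0.901 in BrokenHeart against 0.101 and 0.106 in C57bl6J. Of the territories, 21 of 39 held an insertion and 16 lay above the genome mean, and none lay above it in C57bl6J. Over all 21620 territories 41.2% lay above the genome mean in BrokenHeart and 29.9% held no insertion. The 16 of 39 were thus near the share of all genes. At this depth 1 insertion can put a short territory above the mean, as at Hoxa5. Of 31 tested, 3 were called (background 0.785% higher). Hoxc6 had 5 insertions against 3 and was higher by 4.11 (SE 1.27, edgeR adjusted p = 0.0259), a call that was lost on leaving out any 1 of the 5 animals. Hoxb3 and Hoxb4 had 3 insertions each against 0 (edgeR adjusted p = 0.0497 for each), and no fold is given for them. Hoxb4 lies within the span of Hoxb3, and insertions inside it were counted for Hoxb4. Hoxb4 was also the densest territory at 11.8 (exact 95% Poisson interval 2.43 to 34.4, counting error only), followed by Hoxa5 at 4.67 from 1 insertion and Hoxc6 at 3.96 (1.29 to 9.24).

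Of the Hox cofactors 4 of 5 tested were lower in BrokenHeart and 0 higher (list median -1.04, all genes 0.03), where 18.8% of 1811 territories were higher and 21.5% lower. Meis2 had 3.77, 5.33 and 6.05 against 13.7 and 14.8, a log2 difference of -1.52 (SE 0.16, edgeR adjusted p = 3.41e-07), and Pbx3 and Meis1 had -1.19 and -1.04 (edgeR adjusted p = 0.000366 and 0.0204). Of the forebrain homeodomain genes 5 of 6 were lower and 0 higher, with Pou3f3 at -1.28 and Cux2 at -1.34 (edgeR adjusted p = 2.53e-05 and 0.0018). The developmental regulators outside the forebrain, with 0.284 to 0.468 in BrokenHeart against 0.107 and 0.123, were above both C57bl6J animals in each animal, and none of these genes passed the filter. The genes beside the clusters had 1.09 to 1.51 against 1.86 and 1.87. Jarid2, the 1 of 15 Polycomb genes that passed the filter, was higher by 2.11 (edgeR adjusted p = 9.03e-05). A gene can pass the low-count filter through the group where it is high, so Jarid2 does not stand for the list.

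In N2a the Hoxc cluster was dense and the other 3 were sparse. Hoxc held 308 of the 318 N2a insertions in the 4 clusters (96.9%), a relative density of 6.46 (exact 95% Poisson interval 5.76 to 7.22, counting error only), whereas the highest RNA-read animal had 0.336. Hoxa, Hoxb and Hoxd held 3, 2 and 5 insertions, at 0.0673, 0.0305 and 0.119. Among 14778 tiles of the same length with an insertion, 98.4% held fewer than Hoxc and 241 held more. Hoxd and Hoxa lay at or above 32.9% and 26% of their tiles, and Hoxb 15.6%. With 1 table there is no test between N2a and the animals.

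The insertions centred on Hoxc6. Its territory (gene at chr15:102998226-103011882) held 165 insertions, a relative density of 32.3 (Poisson interval 27.5 to 37.6). Hoxc9 held 60 (15.03, interval 11.5 to 19.4) and Hoxc10 held 40 (10.3, interval 7.34 to 13.98). Hoxc4 had 26 insertions (2.17), Hoxc8 7 (2.61) and Hoxc5 2 (1.36). Toward the tail-ward end the density dropped to 0.860 at Hoxc11 (4 insertions), 0.475 at Hoxc12 and 0.206 at Hoxc13 (2 insertions each). These genes are known for patterning at neck and trunk levels (Hoxc4 to Hoxc9) and at lumbar levels (Hoxc10), and Hoxc9 and Hoxc10 are known from the identity of spinal motor neurons. The order from tail to head was thus low, high, lower at Hoxc8, highest at Hoxc6 and low again. Hoxc13, 1 of the 3 densest Hox genes in C57bl6J, was the sparsest Hoxc gene in N2a.

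**Figure D5:**
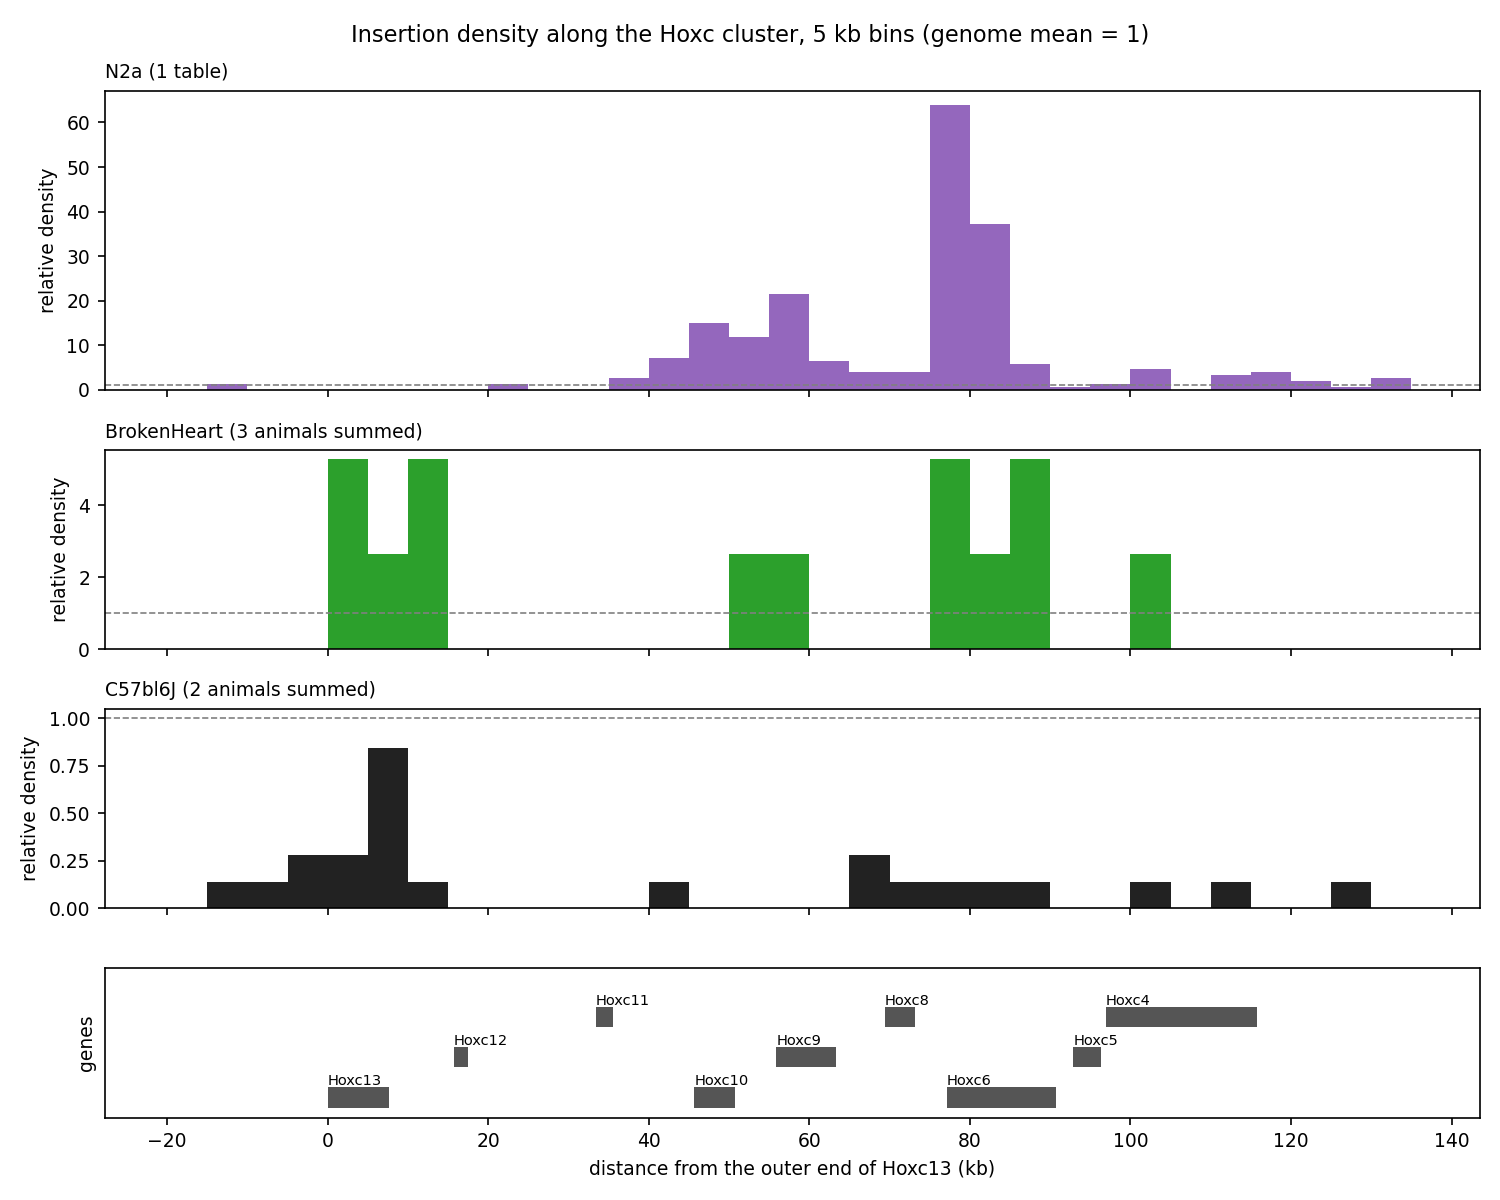
Relative density along Hoxc in 5 kb bins (genome mean = 1, dashed line; the vertical scales differ) against distance from the outer end of Hoxc13, for N2a, BrokenHeart and C57bl6J, with the genes below. N2a peaks at 64.0 in the bin 75 to 80 kb in, at the start of Hoxc6, and C57bl6J stays below 1 in every bin.

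Within Hoxc the N2a density peaked in the 2 bins over the lower-coordinate end of Hoxc6, at 98 and 57 insertions per 5 kb (64.0 and 37.2), and was high again, at 33 insertions (21.5), at the start of Hoxc9. Of gene ends, 75 insertions lay within 1 kb of those of Hoxc6, 20 of Hoxc9, 19 of Hoxc10 and 3 each of Hoxc4 and Hoxc8. The 3 positions with the most insertions were all at Hoxc6. They were chr15:102997492-102997495 with 28, 734 bases outside the gene, chr15:103002458-103002461 with 25, within the gene, and chr15:102997846-102997849 with 17. The 308 insertions used 108 positions, 2.85 insertions per position against 1.68 over the N2a genome, and counting each position once gave 3.80 in place of 6.46. Of the 108 positions 18 were also used in an animal. By strand 37.7% were on the plus strand (Wilson interval 32.4 to 43.2), and 80.5% had at least 2 reads against 83.5% of all N2a insertions.

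The surroundings of Hoxc were dense in N2a as well. The 500 kb on the Hoxc13 side had 2.82 and those on the Hoxc4 side 2.22 in N2a, and chromosome 15 had 1.26. Smug1 and Cbx5, beyond Hoxc4, had 4.52 and 3.77. In N2a the Hox genes as a list had 1.73, near the developmental regulators outside the forebrain at 2.03. Among these Hand1 had 8.84, Gata4 3.81 and Nkx2-5 3.24, and Tbx5, Pdx1 and Cdx2 had 0 insertions. Phox2a had 3.71. The 5 forebrain markers together had 0.551 in N2a from 39 insertions, with 1 of them, Emx2, at 0, against 16.1 and 17.3 in C57bl6J. Meis1 and Pbx3, cofactor genes, had 5.96 and 8.72 in N2a, Meis2 had 1.79 and Pbx2 0 insertions. Copy number of the line was not measured here, and its part in the level at Hoxc was not tested.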

How the data were processed

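In the deposited tables a line is an insertion, with its position, strand, barcode where used, and a read count that the authors left as a raw count. There is 1 table per animal, with the N2a experiments combined, per the labels, and the submitters' processing notes name Novoalign and Bowtie2 and the build mm10, with versions, roles and filters not given in the sources used here. The 194 labelled samples are sequencing pools, and the animal was the replicate. P-values measure the spread between these animals.

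Totals ran from 2341 to 2186743 insertions per animal. An insertion was counted as 1 line. Lines outside chromosomes 1 to 19 and X were left out. Positions were compared as 1-based GRCm38 coordinates after BrokenHeart starts were aligned to those of the other tables. Gene spans came from RefSeq GRCm38.p6. Territories were cut at 20 kb and shared positions went to the shorter gene. Clusters with 20 kb flanks were tested with 50 kb windows, and territories with each other, by edgeR 4.0.16 in R 4.3.3 (quasi-likelihood test, TMM factors, filterByExpr, 2 groups per model, Benjamini-Hochberg over all features, threshold 0.05). As the filter removed nearly all Hox features, fold changes are from the fit without it. Models were tested on simulated counts. Changes were placed only in features with more insertions than most Hox territories held, so the simulations do not cover those territories. DESeq2 1.42.0, total scaling, other flanks, a minimum of 2 reads, distinct positions, blocks and each animal left out were alternatives. Intervals are exact Poisson or Wilson at 95% and cover counting error only, and a count of 0 allows 3 counts.

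The Hox genes, the other gene lists, the markers and the tests were chosen with earlier results of these data known. Genes named are the clusters, the 3 densest Hox genes in C57bl6J, SP1 at P28, N2a and BrokenHeart, called Hox genes, up to 4 called members per list by lowest p, and the 3 most shared positions. BrokenHeart, the most hit N2a positions and the promoters of Hoxb8 and Hoxd1 were added after values were seen. A few genes are not reported singly here.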

Additional observations from a re-analysis of the deposited data

Results flagged for a closer look

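In 23 sets of 4 to 6 animals, 1 cluster in 1 group each, an animal stood apart from its group 10 times by the gap test. Some animals were flagged at more than 1 cluster. The test's rate of about 1 in 20 holds for normally spread values and not for such small counts, so it is no measure here. Most cases rest on 1 insertion. In Syn1CreNeg these were animal 1 at Hoxa (0.168 from 1 insertion), animal 2 at Hoxc (0.173 from 1 insertion) and animal 2 at Hoxd (0.394 from 2 insertions). In Rbp4Cre_TRAP animal 2 was apart at Hoxa (0.359), Hoxc (0.336) and Hoxd (0.382), with 1 insertion each while the other animals had 0. In GFAPCreNeg animal 6 was apart at Hoxb (0.0591 from 1 insertion), animal 4 at Hoxc (0.125 from 3 insertions) and animal 1 at Hoxd (0.129 from 4 insertions). At Hoxb each GFAPCreNeg animal held 1 insertion, and animal 6 had the lowest total. GFAPCre animal 6 had 0.173 at Hoxc from 7 insertions, and the other 5 animals 0.0281 to 0.0699.

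The N2a table enters no comparison between groups. Its relative density of 6.46 at Hoxc, from 308 insertions, was above every RNA-read animal, of which the highest had 0.336.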

How the results depend on the processing

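With the low-count filter 0 Hox clusters and 0 Hox genes were called in each comparison, because 1 cluster in 1 comparison and 0 genes could be tested. Without it, 1 cluster was called in the comparison of Syn1Cre and GFAPCre, 1 cluster and 1 gene in that of Syn1Cre and Syn1CreNeg, and 3 clusters and 3 genes in BrokenHeart against C57bl6J. With the filter, Syn1Cre animals 1 to 3 alone gave 1 cluster against GFAPCre, and leaving out 1 animal in BrokenHeart against C57bl6J gave 0 to 3. Without the filter, Hoxd in Syn1Cre against GFAPCre was called in all 12 omissions of an animal (1.30 to 1.53) and under 6 of 9 other settings. Hoxc in that comparison turned to -0.42 with Syn1Cre animals 4 to 6 alone, and Hoxd in BrokenHeart against C57bl6J turned to 0.60 with total insertions, 0.70 without flanks, 0.34 with a replicate block and 0.35 without BrokenHeart animal 3. These settings were added after the data were seen, and the cause was not tested.

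Same-numbered animals did not deviate together (correlations of -0.212 to 0.183 for Syn1Cre and GFAPCre, and none of the comparisons had each pair above 0.1), so the numbers do not pair the animals. With the replicate number as a block, 0 clusters and 0 genes were called with the filter. Without the filter the block kept Hoxd in Syn1Cre against GFAPCre (1.42, edgeR adjusted p = 0.0083) and against Syn1CreNeg (1.98, 0.0287) and Hoxc in BrokenHeart (3.00, 0.0289), and it ended the calls of Hoxa (3.49, 0.0864) and Hoxb (2.19, 0.308) there, of Hoxc6 (4.21, 0.516) and of Hoxd1 against Syn1CreNeg (2.80, 0.0588).

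The BrokenHeart mean at Hoxc crossed the genome mean, at 0.978 as reported, 1.035 with at least 2 reads and 1.316 without flanks, within the spread between animals. Counting distinct positions gave C57bl6J 0.0916, 0.145, 0.167 and 0.302 at Hoxa to Hoxd, Syn1Cre 0.104 at Hoxb and 0.301 at Hoxd, GFAPCre 0.113 at Hoxd and N2a 3.80 at Hoxc. Without flanks C57bl6J had 0.0625 at Hoxb and 0.102 at Hoxd, Syn1Cre 0.102 and GFAPCre 0.0228 at Hoxd, and N2a 8.26 at Hoxc and 0.0337 at Hoxd. With 50 kb flanks C57bl6J had 0.121, 0.102, 0.168 and 0.248, GFAPCre 0.179 at Hoxa and N2a 5.34 at Hoxc. Depth limits the SP1, Rbp4Cre_TRAP, Frontflip and BrokenHeart groups most.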
